A study of Homo sapiens with 20 samples.

Results

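The synaptic vesicle and exocytosis genes examined here are 34 named genes whose products sit on synaptic vesicles, fuse them with the plasma membrane or return the fusion machinery to use. They were chosen by symbol, matched through the Ensembl identifier, and all 34 were found among the 58787 genes of the count table. Of these, 31 had enough counts to be tested, among 13729 tested genes in all; SV2B, RIMS1 and NAPA did not. Expression was measured in cells of the human neuroblastoma line IMR-32, with an unmodified genotype, labelled by the submitters as brain tissue and as a neuroblast. Cells attached for 24 h and were then treated for another 24 h in 5 groups of 4 libraries. The first group received DMSO, the vehicle. Other groups received Dyngo-4a alone, either 1 µM, here called the low dose, or 2.26 µM, the high dose. The sample titles label the high dose IC50, an inhibitory concentration, without saying what was inhibited. A further group received 2 nM prexasertib, and the last received both compounds (the combination, whose doses the sources used here do not give). Dyngo-4a blocks dynamin, the GTPase that pinches off endocytic vesicles, and prexasertib inhibits the checkpoint kinase CHK1; the series is titled for joint inhibition of CHK1 and MUS81 in high-risk disease. All values come from a single cell line.

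A synaptic vesicle is filled with transmitter, docked and primed at the active zone, and fused when calcium enters. Fusion is driven by SNARE proteins, VAMP on the vesicle and syntaxin and SNAP-25 on the plasma membrane, which are held ready by complexin and triggered by the calcium sensor synaptotagmin. Afterwards NSF and the SNAP adaptors take the SNARE complexes apart, and dynamin and synaptojanin act in the endocytosis that recovers the vesicle. Neuroblastoma cells derive from the sympathetic lineage and carry dense-core vesicles that use much of the same machinery.

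The 12 listed markers of adrenergic neuroblastoma all averaged over 1 CPM (counts scaled to library size with TMM factors), with CHGA at 541 CPM, although TH, which encodes the first enzyme of catecholamine synthesis, averaged only 1.1 CPM. Their summed level ran from 7680 to 8330 CPM in DMSO, 7330 to 7860 in the combination and 7130 to 8110 in the high dose. Of 7 mesenchymal markers 6 averaged over 1 CPM, with PRRX1 at 0 in all libraries. The sum of the 7 was 612 to 769 CPM in DMSO, 833 to 936 in the high dose and 706 to 739 in the combination. The low dose (627 to 752) and prexasertib (615 to 769) lay near DMSO. VIM (433 CPM over all libraries) and TWIST1 (280 CPM) made up most of this sum. SNAI2 averaged 11.5 CPM, FN1 4.14, CD44 1.64 and YAP1 1.27, so the sum says little about them. The defining genes SOX10 (Schwann cells), CD3E (T cells) and KRT18 (epithelium) were at 0 in all 20 libraries. Library totals were 3960885 to 6537843 counts, so a count of 0 allows up to 3 counts, 0.47 to 0.752 CPM. MALAT1, a nuclear RNA, held 2.95% ± 0.156 of all counts at the high dose (SD, n = 4) and 2.34% ± 0.537 in the combination, against 1.36% ± 0.419 in DMSO; the low dose (1.56% ± 0.433) and prexasertib (1.42% ± 0.36) lay near DMSO. The part of the MALAT1 and mesenchymal marker shifts in the results below was not tested. In bulk libraries, fewer cells of a type and less RNA per cell cannot be told apart. The labels do not say whether a group's 4 libraries are separate cultures, and the spread behind each p-value is only that between these libraries.

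The high dose of Dyngo-4a changed 14 of the 31 tested genes at an adjusted p under 0.05 (quasi-likelihood test of edgeR, Benjamini-Hochberg over all tested genes), where 25.2% of all 13729 genes were called. SYT1, SYT4, SYT11, SYPL1, SYN2, SV2C, VAMP2, VAMP4, SYNJ1 and NAPB rose, and SYT2, SYNGR4, CPLX1 and NSF fell. The 10 higher genes were 32.3% of the 31, beside 12.5% of all genes called higher, and the 4 lower genes were 12.9%, beside 12.7% of all genes called lower. The median log2 fold change of the 31 was 0.08, beside 0.00 for all tested genes. The 34 genes together took 0.184% ± 0.011 of the counts in DMSO and 0.211% ± 0.0159 in the high dose (SD, n = 4). The highest DMSO library and the lowest high-dose library both stood at 0.196%. SYT1 was the largest single part of this sum, averaging 651 CPM in DMSO and 820 CPM in the high dose.

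The other treatments called few of these genes. In the low dose 1 of 31, SYT2, fell, with 0.262% of all genes called, and the median was 0.05. All genes called lower there were 0.0801%. A block for the replicate number, which was read as pairing libraries in this comparison, called 260 genes in place of 36 and again 1 of the 31. With prexasertib 0 of 31 were called, with 0% of all genes called; at an unadjusted p under 0.05 there were 2 of the 31 and 518 of all genes, and DESeq2 called 0 and 6. In the combination SYT11 rose and SYT2 fell, 2 of 31, where 6.3% of all genes were called, a share close to theirs of 6.45% (3.47% higher and 2.83% lower), and the median was 0.14. The comparisons with DMSO share the same 4 DMSO libraries, and the difference between the combination and the high dose was not tested.

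**Figure D1:**
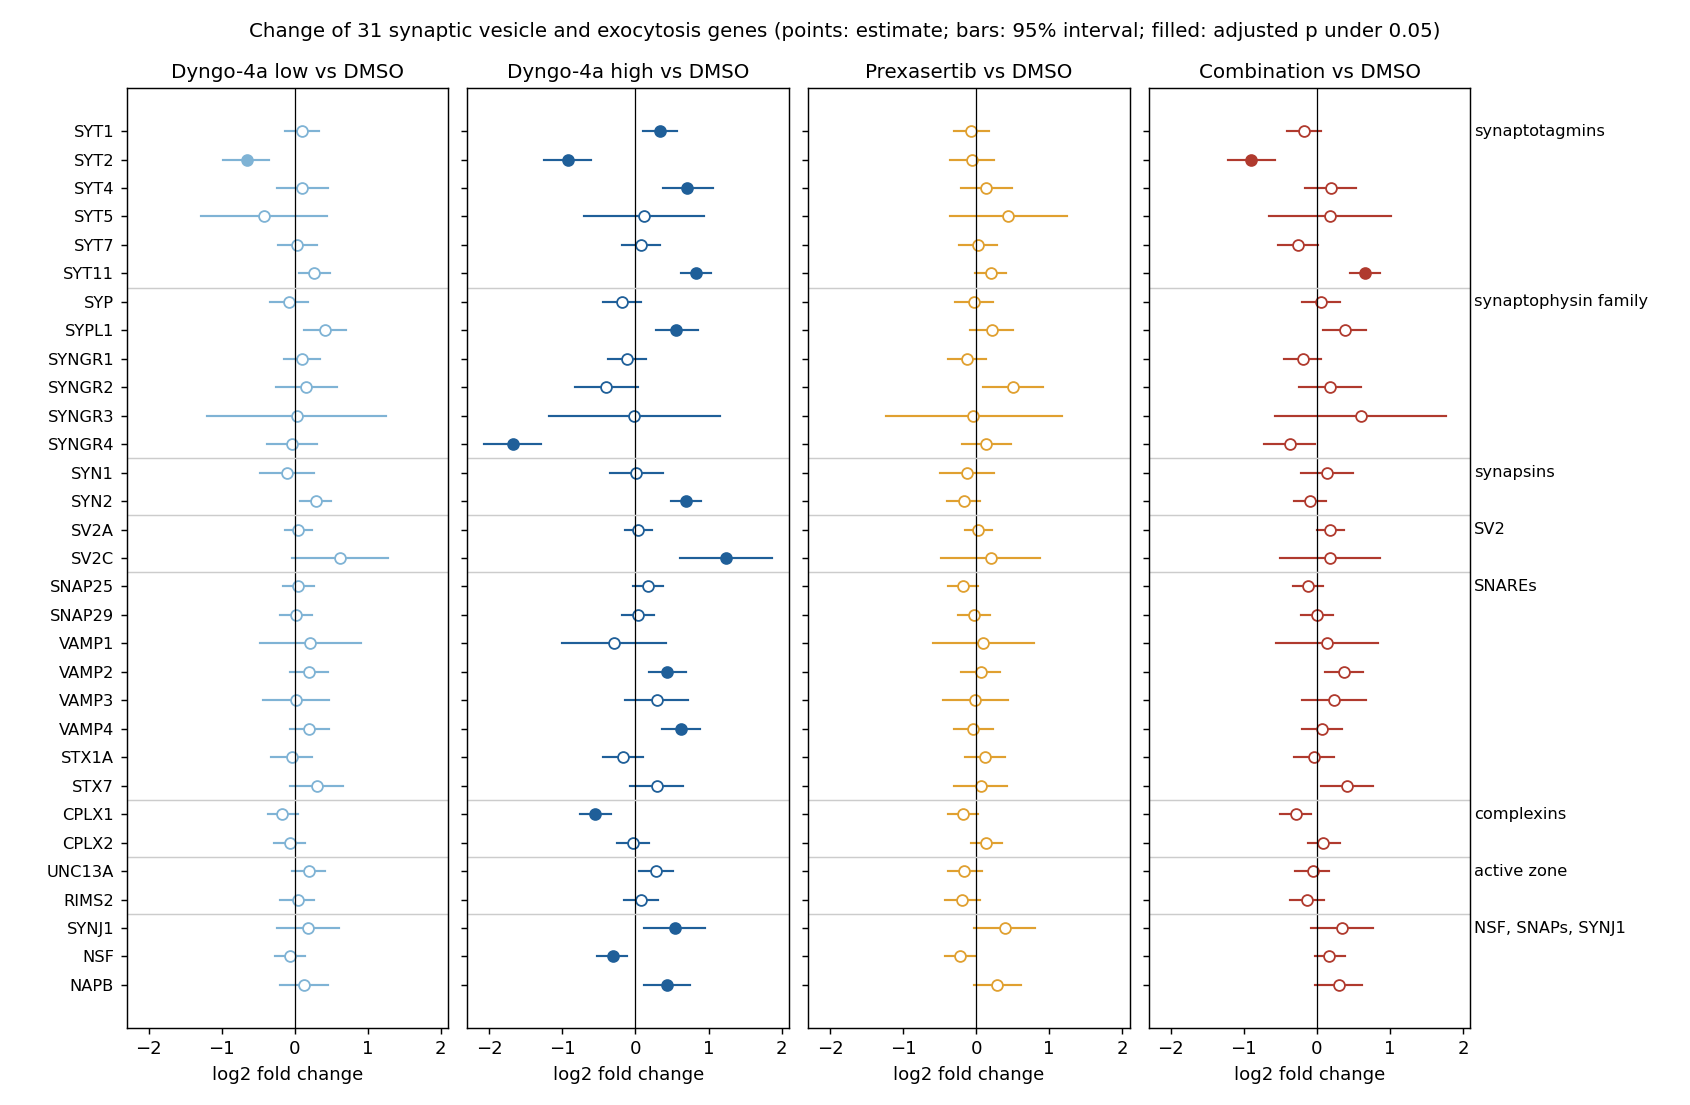
The log2 fold change (x axis) of each of the 31 tested genes (y axis, grouped by role) against DMSO is drawn in 1 panel per treatment, with bars for the 95% interval and filled points for an adjusted p under 0.05. Filled points number 14 for the high dose, 2 for the combination, 1 for the low dose and 0 for prexasertib.

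Synaptotagmins are vesicle membrane proteins with paired C2 domains; SYT1 and SYT2 are the fast calcium sensors of transmitter release, SYT7 is a slower sensor with high calcium affinity, and SYT4 and SYT11 are divergent members that do not trigger fast release. The promoters of a riser and of a faller are shown here because SYT11 and SYT2 were the genes called in the combination as well as in the high dose, in opposite directions. The sequences come from RefSeq (GRCh38.p14), read 5′ to 3′ on the gene's strand, and hold the 250 bases before the annotated start. Capitals mark matches on either strand to the ETS core CGGAAG in SYT11 and to the GC box GGGCGG in SYT2. The first spans chr1:155859317-155859566 (plus strand), and the second chr1:202710455-202710704 (minus strand), the upstream of 2 starts that RefSeq gives for SYT2.
SYT11: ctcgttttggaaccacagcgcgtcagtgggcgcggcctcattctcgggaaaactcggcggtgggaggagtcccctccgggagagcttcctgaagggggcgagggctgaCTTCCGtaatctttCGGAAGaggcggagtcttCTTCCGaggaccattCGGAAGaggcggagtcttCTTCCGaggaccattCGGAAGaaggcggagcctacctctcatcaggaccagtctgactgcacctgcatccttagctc
SYT2: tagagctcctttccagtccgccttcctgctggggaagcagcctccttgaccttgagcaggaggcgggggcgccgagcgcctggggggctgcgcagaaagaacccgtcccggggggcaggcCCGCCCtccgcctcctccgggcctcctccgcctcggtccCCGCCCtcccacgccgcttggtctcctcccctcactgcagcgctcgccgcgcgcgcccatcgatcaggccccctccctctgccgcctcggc

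The SYT11 window held 6 ETS core matches, alternating in strand, between 142 and 57 bases before the RefSeq start. The GENCODE start of SYT11, at 155859509, lies inside this window, so the distances hold for the RefSeq start only. This letter pattern occurs at least once in 16.5% of 35116 promoter windows of the same length, and 6 or more times in 12 of them (0.0342%). The longest stretch found again in the SYT11 window was 42 bases, beginning 130 and 97 bases before the start, so its copies overlap. The ETS pattern was searched after the SYT11 window had been read. The SYT2 window held 2 GC box matches and 0 ETS core matches. A GC box occurs in 42.6% of all windows and in 27 of the 43 windows of the 28 genes with a window. SYT7, SYNGR3, SYNGR4, SNAP25, CPLX1 and RIMS2 have no entry in the table. These matches describe letters only.

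SYT2 (chromosome 1, 202590596 to 202710417, minus strand, GRCh38) fell wherever Dyngo-4a was given. Replicates 1 to 4 measured 27.8, 29.6, 30.4 and 30.4 CPM in DMSO, 19, 17, 19.4 and 19.3 in the low dose, and 15.6, 15.7, 16.9 and 14 in the high dose. With prexasertib they measured 26.2, 22.9, 33.7 and 30.9 CPM, and in the combination 17.5, 16.7, 19.7 and 9.97. Every library that received Dyngo-4a lay below every library that did not, and the 2 doses did not overlap each other either. The log2 fold change against DMSO was -0.66 ± 0.16 (SE) in the low dose (adjusted p = 0.0476), against -0.93 ± 0.16 for the high dose (adjusted p = 2.7e-05) and -0.90 ± 0.16 for the combination (adjusted p = 0.000167). The combination also lay below prexasertib alone, by -0.84 ± 0.16 (adjusted p = 0.000671). Between the 2 doses the difference was -0.26 (95% interval -0.59 to 0.07, adjusted p = 0.278), and for prexasertib alone it was -0.06 (-0.36 to 0.25). The low-dose call was lost without any 1 of the 8 libraries (adjusted p up to 0.166), with library sizes alone (0.0777) and by limma-voom (0.0554), whereas a block for the replicate number gave 0.00297. The 3′ end of SYT2 overlaps that of PPP1R12B on the opposite strand, which measured 0.66 (adjusted p = 0.00384) at the high dose and 0.07 for the combination; the sources used here do not say whether the counting used strand.

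SYT11 (chromosome 1, 155859509 to 155885199, plus strand, overlapping no other gene) rose. Replicates 1 to 4 measured 68.7, 73, 55.6 and 70.1 CPM in DMSO, 118, 121, 109 and 126 in the high dose, with 109, 110, 90.1 and 113 for the combination. The low dose gave 78.6, 84.9, 74.5 and 84.3 CPM, and prexasertib 82.3, 73.6, 66.4 and 84.8. High-dose and combination libraries all lay above every other library, and the low dose lay above DMSO while prexasertib overlapped it. On the log2 scale the high dose exceeded DMSO by 0.83 ± 0.10 (adjusted p = 9.66e-08) and the combination by 0.66 ± 0.10 (adjusted p = 1.86e-05). It was 0.27 in the low dose (95% interval 0.06 to 0.48, adjusted p = 0.468) and 0.20 with prexasertib (-0.01 to 0.41). The high dose exceeded the low dose by 0.56 (adjusted p = 9.42e-05), and the combination exceeded prexasertib by 0.46 (adjusted p = 0.00415).

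SYT4 (chromosome 18, 43267878 to 43277650) rose in the high dose. It measured 36.2, 31.1, 22.6 and 42.6 CPM in DMSO, 34.7, 35, 31.2 and 41.4 in the low dose, and 50.7, 63, 35.5 and 69.4 in the high dose. High-dose replicate 3 lay within the range of DMSO and the other 3 above it. The rise was 0.71 ± 0.17 (log2) against DMSO (adjusted p = 0.002) and 0.62 against the low dose (adjusted p = 0.00849), and the combination measured 0.19 (-0.16 to 0.54) against DMSO.

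SYT1 measured 716, 694, 647 and 545 CPM in DMSO and 947, 834, 686 and 811 in the high dose, where it rose by 0.33 ± 0.12 (log2, adjusted p = 0.0324) with overlapping libraries. That call was lost without DMSO replicate 3 or 4 or high-dose replicate 1 or 2 (adjusted p up to 0.122) and when libraries were scaled by their size alone (0.0599). In the combination SYT1 measured 731, 538, 545 and 495 CPM, a log2 difference of -0.17 from DMSO (-0.41 to 0.06). Against the low dose the high dose measured 0.24 (adjusted p = 0.157), which passed with the replicate number as a block (adjusted p = 0.00289). SYT7 ranged from 23.3 to 38.4 CPM over all libraries and SYT5 from 1.12 to 4.3 CPM, and neither was called in any of the 6 comparisons.

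**Figure D2:**
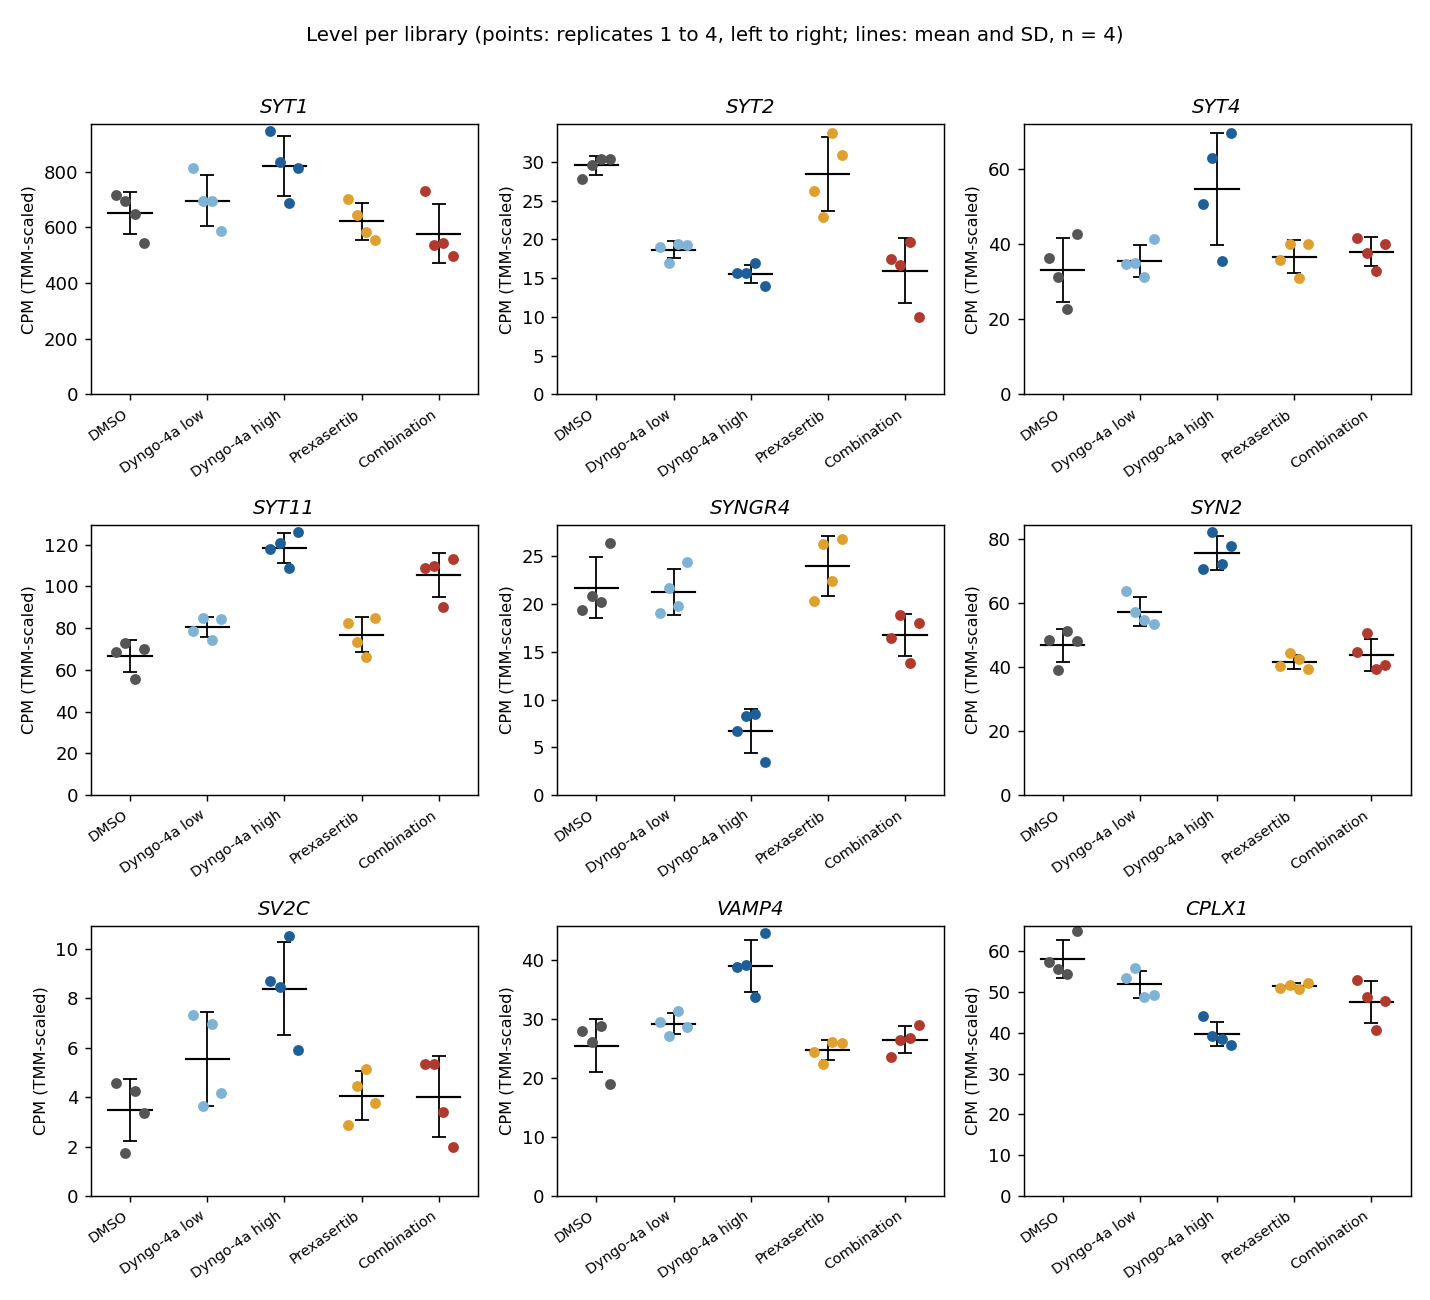
Level per library in CPM (y axis, from 0) for 9 of the genes, by group (x axis), with points for replicates 1 to 4 from left to right and lines for the mean and SD (n = 4). SYT2 libraries with Dyngo-4a all lie below those without it, and SYNGR4 is low in the high dose, at 3.51 to 8.52 CPM.

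Synaptophysin and its relatives are abundant vesicle proteins that cross the membrane 4 times; the neuronal forms are SYP, SYNGR1 and SYNGR3, while SYPL1 and SYNGR2 are widely expressed. Of the 6 tested, SYPL1 rose and SYNGR4 fell in the high dose, and SYP measured -0.18 there (95% interval -0.45 to 0.08, adjusted p = 0.313).

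SYNGR4 (chromosome 19, 48364395 to 48376376, plus strand, overlapping no other gene) had the largest fall of the 31 in the high dose. Replicates 1 to 4 measured 19.4, 20.8, 20.2 and 26.4 CPM in DMSO, 19, 21.6, 19.8 and 24.4 in the low dose, and 6.7, 8.28, 8.52 and 3.51 in the high dose. Prexasertib gave 20.3, 26.3, 22.4 and 26.8 CPM and the combination 16.4, 18.8, 13.8 and 18. The high-dose libraries lay below the other 16, and the combination libraries lay below those of DMSO, the low dose and prexasertib. The log2 fold change of the high dose was -1.68 ± 0.19 against DMSO (adjusted p = 2.29e-08) and -1.65 ± 0.19 against the low dose (adjusted p = 7.17e-08), while the low dose measured -0.04 (-0.38 to 0.31) against DMSO. In the combination it was -0.37 against DMSO (-0.73 to -0.02, adjusted p = 0.225) and -0.51 against prexasertib (adjusted p = 0.093), and the latter passed with the replicate number as a block (0.0227).

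SYPL1 measured 15.8, 17.8, 16.5 and 16.2 CPM in DMSO and 24.7, 24.1, 26.7 and 22.1 in the high dose, with no overlap, a rise of 0.56 ± 0.14 (log2, adjusted p = 0.00276). The low dose gave 20.5, 20, 23.1 and 24.7 CPM and the combination 20.9, 23.9, 22.2 and 19. Both lay above DMSO as well, at log2 differences of 0.42 (adjusted p = 0.395) and 0.38 (adjusted p = 0.11) that did not pass. SYNGR2 measured 7.25 to 10 CPM in DMSO and 11.4 to 13.5 CPM with prexasertib, which lay above DMSO, but its log2 difference of 0.51 (0.09 to 0.92) had an adjusted p of 1. From the low to the high dose SYNGR2 measured -0.55 (adjusted p = 0.0611), which passed with the replicate block (0.0436) or without high-dose replicate 1 (0.0213). SYNGR1 was not called, with 27 to 43.8 CPM over all libraries, and SYNGR3 lay close to the detection limit.

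Synapsins are phosphoproteins that tether vesicles into the reserve pool; SYN2 rose in the high dose, and SYN1 did not pass the test in any comparison. Their promoters are shown to let the letters of the pair be compared; SYN1 is a textbook carrier of RE1, the neuron-restrictive silencer element. The windows are chrX:47619858-47620107 (minus strand) and chr3:12004138-12004387 (plus strand) of GRCh38.p14 in RefSeq. Capitals mark, in SYN1, the left RE1 part TTCAGCACC, the right RE1 part and the cyclic AMP response element TGACGTCA and, in SYN2, GC boxes.
SYN1: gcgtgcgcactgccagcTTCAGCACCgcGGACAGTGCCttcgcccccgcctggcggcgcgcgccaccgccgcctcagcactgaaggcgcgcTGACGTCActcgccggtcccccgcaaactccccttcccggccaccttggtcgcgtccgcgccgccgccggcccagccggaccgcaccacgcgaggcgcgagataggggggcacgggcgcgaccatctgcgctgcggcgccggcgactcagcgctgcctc
SYN2: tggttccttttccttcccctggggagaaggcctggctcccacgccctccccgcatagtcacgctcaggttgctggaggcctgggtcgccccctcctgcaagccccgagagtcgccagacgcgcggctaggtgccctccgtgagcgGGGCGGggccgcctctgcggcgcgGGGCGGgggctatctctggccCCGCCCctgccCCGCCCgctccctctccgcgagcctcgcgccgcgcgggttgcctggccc

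In the SYN1 window the RE1 parts lay 233 to 225 and 222 to 213 bases before the RefSeq start and the cyclic AMP element 159 to 152 before it. The outermost GENCODE start of SYN1, at 47619943, lies inside this window. Searched on both strands, the left RE1 part occurs in 0.288% of the 35116 windows, the right part in 0.683% and the cyclic AMP element in 1.65%; among the 28 genes with a window, the right part also occurred in UNC13A. The SYN2 window held 4 GC boxes and none of these 3 patterns. SYN1 is 76.8% and SYN2 75.6% G and C, beside a median of 58.0% over all windows.

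SYN2 measured 48.5, 39.1, 51.2 and 48.3 CPM in DMSO, 63.9, 57.1, 54.7 and 53.6 in the low dose and 70.6, 82.3, 72.2 and 77.7 in the high dose. The 3 groups did not overlap and followed the order of dose. The high dose differed from DMSO by 0.69 ± 0.11 (log2, adjusted p = 5.56e-06) and from the low dose by 0.40 (adjusted p = 0.00498), and the low dose differed from DMSO by 0.29 (0.07 to 0.50, adjusted p = 0.458). In the combination SYN2 measured 44.6, 50.7, 39.5 and 40.6 CPM, all within the DMSO range, at -0.10 (-0.32 to 0.13). SYN1 measured 18.1, 15.3, 13.5 and 17 CPM in DMSO and 15.4, 18.2, 15.2 and 15.7 in the high dose, a log2 difference of 0.01 (-0.35 to 0.37). The 3′ end of SYN1 overlaps ARAF on the opposite strand, which measured 0.27 there (adjusted p = 0.244).

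SV2 proteins are vesicle glycoproteins that resemble transporters; SV2A binds the antiseizure drug levetiracetam, and all 3 forms serve as entry receptors for botulinum neurotoxin A. SV2C measured 4.57, 1.75, 4.23 and 3.36 CPM in DMSO, 7.34, 3.63, 6.97 and 4.18 in the low dose, and 8.68, 8.46, 10.5 and 5.91 in the high dose. The high dose lay above DMSO, and the low dose overlapped both. The rise was 1.24 ± 0.31 on the log2 scale (95% interval 0.61 to 1.87, adjusted p = 0.00273), the largest of the 31, from a low level. SV2A ranged from 131 to 184 CPM over all libraries and was not called; its high-dose log2 difference was 0.04 (-0.14 to 0.22).

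Among the 8 SNARE genes, 2 vesicle SNAREs rose in the high dose and 0 fell, a called share of 25% beside 25.2% of all genes. VAMP2, the SNARE of synaptic vesicles, measured 36.2, 47.1, 31.2 and 39.5 CPM in DMSO and 49.7, 50.8, 62 and 44.9 in the high dose, which overlapped, and rose by 0.43 ± 0.13 (log2, adjusted p = 0.00979). Leaving out DMSO replicate 3 or high-dose replicate 3 ended the call (adjusted p up to 0.0652). Within replicates 1 and 3 alone the difference was 0.74, and within replicates 2 and 4 alone it was 0.14 (adjusted p = 0.623). In the combination VAMP2 measured 43.9, 47.7, 54.5 and 52.6 CPM. Its log2 difference of 0.37 from DMSO (0.11 to 0.63, adjusted p = 0.075) passed without DMSO replicate 2 (0.0309). The 3′ end of VAMP2 overlaps AC129492.3 on the same strand (0 counts). The sources used here do not say how reads shared between these genes were counted.

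VAMP4 acts between the trans-Golgi network and endosomes and in bulk endocytosis at synapses. It measured 28, 26.1, 28.8 and 18.9 CPM in DMSO, 29.4, 27.1, 31.4 and 28.7 in the low dose and 38.7, 39.1, 33.7 and 44.5 in the high dose, which lay above both. Its rise was 0.62 ± 0.13 (log2) against DMSO (adjusted p = 0.000434) and 0.42 against the low dose (adjusted p = 0.0167, but 0.0618 without high-dose replicate 4). The combination measured 0.07 against DMSO (-0.21 to 0.34).

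The plasma membrane partners did not pass in any comparison. SNAP25 measured 56.5, 56.2, 59.2 and 53.5 CPM in DMSO, 57.2, 66.8, 57 and 72.4 in the high dose (log2 difference 0.17, -0.04 to 0.38) and 49.9, 49.7, 48.1 and 50.8 with prexasertib. The prexasertib libraries lay below DMSO, with a log2 difference of -0.18 (-0.39 to 0.03). STX1A ranged from 22.7 to 37.4 CPM over all libraries. Its 3′ end overlaps BUD23 on the opposite strand, which averaged 128 CPM and measured -0.11 in the high dose. Of the SNAREs of other membranes, STX7 of late endosomes lay above DMSO in the low dose (16.3 to 19 against 12.8 to 16.1 CPM; log2 0.30, -0.06 to 0.66). In the combination STX7 measured 22.2, 12.6, 25.6 and 16.9 CPM, a log2 difference of 0.41 (0.05 to 0.77, adjusted p = 0.182) that passed without combination replicate 2 (0.0362). Neither SNAP29 of autophagosomes (38.6 to 52.5 CPM) nor VAMP3 of recycling endosomes (5.73 to 14.1 CPM) was called. VAMP1, at 1.81 to 5.23 CPM, had a wide interval in the high dose (-1.01 to 0.42).

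Complexins bind the assembled SNARE complex and hold it for calcium. CPLX1 (chromosome 4, 784957 to 826198, overlapping no other gene) fell in the high dose, while CPLX2 measured -0.04 there (-0.25 to 0.18). CPLX1 gave 57.3, 55.7, 54.4 and 64.8 CPM in DMSO, 53.3, 55.9, 48.8 and 49.3 in the low dose, and 44, 39.3, 38.5 and 36.9 in the high dose. Prexasertib gave 51, 51.6, 50.7 and 52.2 CPM and the combination 52.8, 48.8, 40.6 and 47.7. The high dose lay below DMSO, the low dose and prexasertib, and it overlapped the combination in part. CPLX1 changed by -0.55 ± 0.10 (log2) against DMSO (adjusted p = 0.000117) and -0.39 against the low dose (adjusted p = 0.00693). The combination lay below DMSO at -0.29 (-0.50 to -0.08, adjusted p = 0.0871). CPLX2 ranged from 131 to 209 CPM over all libraries.

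At the active zone, UNC13A primes vesicles by opening syntaxin, and the RIM proteins scaffold the site of release. UNC13A measured 48.3, 36.9, 41.5 and 41.8 CPM in DMSO and 52.3, 52.8, 51.9 and 48.2 in the high dose. DMSO replicate 1 lay just above the lowest high-dose library, and the log2 difference of 0.28 (0.05 to 0.51) had an adjusted p of 0.066, which became 0.0315 without that replicate. RIMS2 ranged from 50.3 to 79.5 CPM and was not called; a same-strand pseudogene at its 3′ end averaged 1.17 CPM.

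NSF is the ATPase that pulls used SNARE complexes apart, and NAPB, the neuronal beta-SNAP, recruits it. NSF measured 69.5, 79.2, 76.6 and 74.3 CPM in DMSO and 61.9, 55.1, 55.5 and 68.7 in the high dose, which lay below, a log2 fold change of -0.31 ± 0.10 (adjusted p = 0.0209). Prexasertib gave 57.3, 63.7, 66.2 and 68.9 CPM and the combination 75.7, 89.2, 80.8 and 91. The combination lay above prexasertib by 0.40 ± 0.10 (adjusted p = 0.0171), and it measured 0.17 against DMSO (-0.03 to 0.38). From the low to the high dose NSF measured -0.25 (adjusted p = 0.0804), which passed with the block (0.0288) or without high-dose replicate 4 (0.047). The high-dose call was lost without DMSO replicate 2 or high-dose replicate 2 or 3 (adjusted p up to 0.0758) and with no low-count filter (0.0639), and the combination's without combination replicate 2 or 4 or prexasertib replicate 1 or 2 (up to 0.0914). NSF has a partial copy on the same chromosome, NSFP1, and the sources used here do not say how reads shared between copies were counted, so its values are uncertain.

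NAPB measured 18.7, 25.3, 17.7 and 15.2 CPM in DMSO and 24.8, 27.7, 23.9 and 25.7 in the high dose, and rose by 0.43 ± 0.16 (log2, adjusted p = 0.0433). SYNJ1, the phosphoinositide phosphatase that helps shed clathrin coats, measured 9.71, 6.27, 13.5 and 7.68 CPM in DMSO and 14.2, 12.4, 14 and 13.7 in the high dose, and rose by 0.54 ± 0.20 (adjusted p = 0.0494). In both genes 1 DMSO library reached into the high-dose range. Each call was lost in 7 of the 8 fits that left out a library, up to an adjusted p of 0.168 for NAPB (it held without DMSO replicate 2) and 0.171 for SYNJ1 (it held without DMSO replicate 3). Library sizes alone or no low-count filter also ended both calls (NAPB 0.0516 and 0.0607, SYNJ1 0.0526 and 0.0792), and SYNJ1 was lost besides with RLE factors, with a filter of 1 CPM in 4 libraries (0.0525) and in a fit of these groups alone (0.0605).

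At the high dose 9 of the 31 tested genes, all of them called, had libraries that did not overlap with DMSO; over all tested genes the share was 23.3%. The number without overlap was 5 in the low dose (4.62% of all genes), 4 with prexasertib (2.94%), 5 in the combination (10.9%), 7 between the doses (21% of all genes) and 4 between combination and prexasertib (9.86%). SYT2, SYT4, SYT11, SYNGR4, SYN2, SV2C and CPLX1 passed in every fit tried of the high dose against DMSO, those within replicates 1 and 3 and within replicates 2 and 4 included. SYPL1 did not pass within replicates 2 and 4 alone (0.44, adjusted p = 0.165), nor VAMP4 within replicates 1 and 3 alone (0.36, adjusted p = 0.162). In other comparisons some calls of these genes were lost within a pair: high against low dose for SYT4 (adjusted p = 0.19), SYN2 (0.195), VAMP4 (0.366) and CPLX1 (0.228) within replicates 1 and 3, and combination against prexasertib for SYT11 within replicates 1 and 3 (0.0584) and 2 and 4 (0.0754). Against the low dose, 6 of the 31 were called at the high dose, 4 higher and 2 lower (19.4%). Of all genes 20.2% were called there, 10.1% higher and 10.1% lower. A block for the replicate number called 9 of the 31 in this comparison, and 3980 of all genes in place of 2767. Between the combination and prexasertib, SYT11 and NSF were higher and SYT2 lower (3 of 31, beside 3.44% of all genes, 2.4% higher and 1.04% lower), and SYNGR4 joined them with the block.

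**Figure D3:**
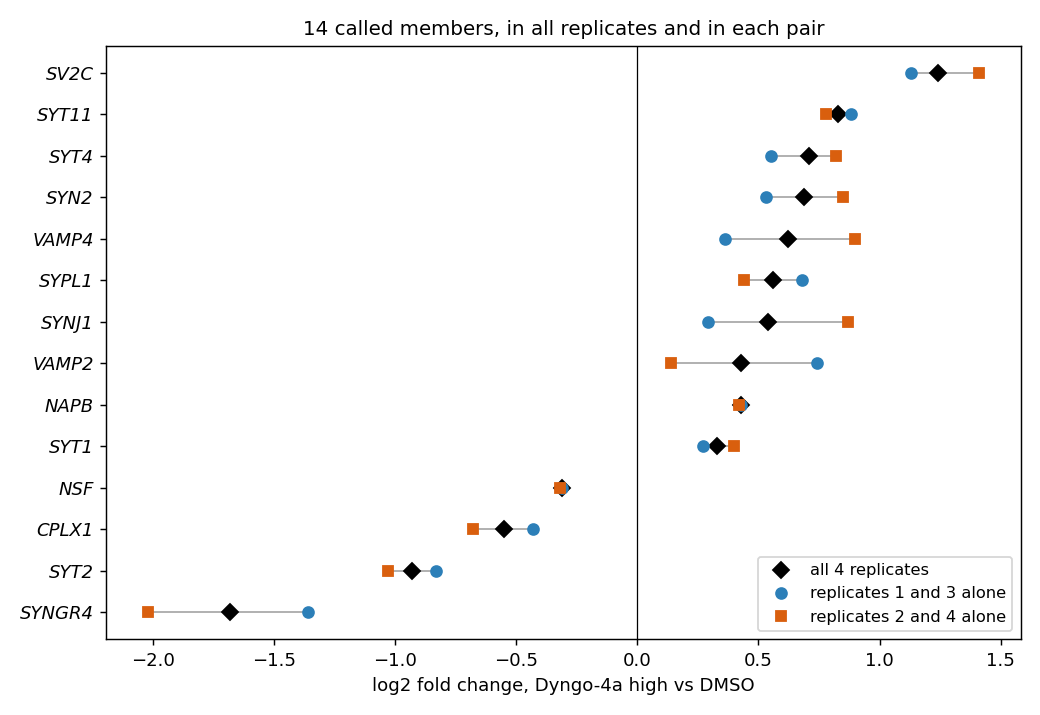
The log2 fold change of the high dose against DMSO (x axis) for the 14 called genes (y axis) from all 4 replicates (diamonds), replicates 1 and 3 alone (circles) and replicates 2 and 4 alone (squares). All points keep their sign, and the widest gaps between the pairs are those of SYNGR4 (-1.36 and -2.02), VAMP2 (0.74 and 0.14), SYNJ1 (0.29 and 0.87) and VAMP4 (0.36 and 0.90).

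The lowest counts set limits on detection. RIMS1 had 13 counts in all 20 libraries together and 0 counts in 13 of them, the 4 combination libraries included. NAPA, the ubiquitous alpha-SNAP, had only 59 counts in all, from 0 to 9 a library; its 3′ end overlaps NAPA-AS1 on the opposite strand (50 counts in all) and AC073548.1 on the same strand (0 counts). SV2B had 69 counts, with 0 in 3 libraries and 12, 2, 4 and 8 in the combination. These genes were not tested, and most of their libraries lay at or near the limit that a count of 0 allows. SYNGR3 was tested on 137 counts in all and SYT5 on 242. Their 95% intervals in the high dose ran from -1.19 to 1.16 and from -0.70 to 0.94, so log2 differences inside those intervals were not excluded.

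**Figure D4:**
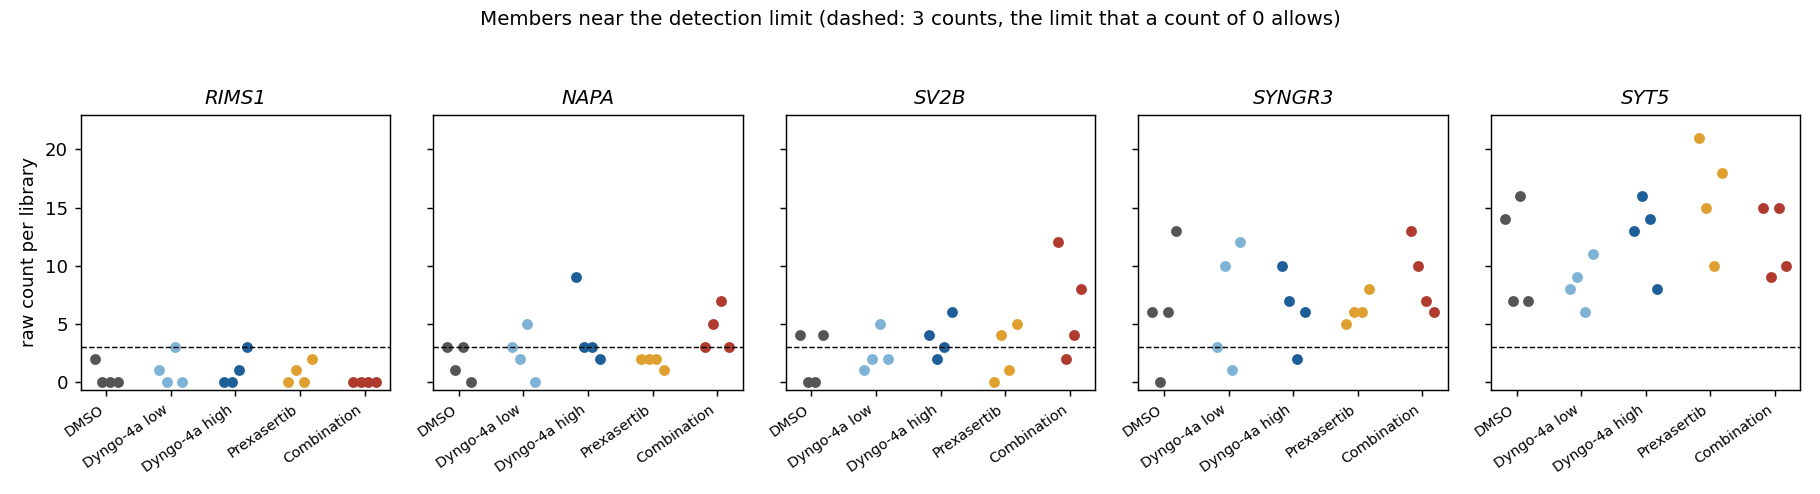
Raw count per library (y axis) by group (x axis, 4 points each) for RIMS1, NAPA, SV2B, SYNGR3 and SYT5, with a dashed line at the 3 counts that a count of 0 allows. RIMS1 lies at or below the line in every library, and the others straddle or exceed it.

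A list of 126 other genes of exocytosis, 94 of them tested, gives the setting of these values. In the high dose 24 of the 94 were called, 18 higher and 6 lower (25.5%). Of all genes 25.2% were called there, 12.5% higher and 12.7% lower. Of the other active zone proteins all 21 tested measured above 0, with a median of 0.33 beside 0.00 for all genes, and 6 were called, all higher. PCLO, which encodes the giant active zone scaffold piccolo, went from 28.3 to 40.7 CPM in DMSO to 87.2 to 121 CPM in the high dose (log2 1.55 ± 0.18, adjusted p = 6.73e-07) and 54.1 to 95.2 CPM in the combination (1.09, adjusted p = 0.000308). Neither range overlapped with DMSO. The exocyst, which tethers vesicles to the plasma membrane, had 3 of 9 higher and 0 lower, and 4 of 10 SNARE regulators were higher and 0 lower. Other SNAREs had 3 higher and 1 lower of 23, other vesicle proteins 1 and 3 of 14, synaptotagmin relatives 1 and 1 of 13, and vesicle transporters 0 and 1 of 4.

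Further genes of that list moved by the rule for naming them. In the high dose SYT17, a peripheral synaptotagmin relative, rose by 1.35 ± 0.17 (adjusted p = 6.73e-07) and BNIP1, a SNARE of the endoplasmic reticulum, by 0.91 ± 0.20 (adjusted p = 0.000768). Within replicates 1 and 3 alone the SYT17 call was lost (1.19, adjusted p = 0.0693). SNCG, gamma-synuclein, measured -2.39 ± 0.49 (adjusted p = 0.000339) from 1.81 to 6.4 CPM in DMSO to 0.197 to 1.48 CPM, which reaches the detection limit. The SNCG call was lost within replicates 1 and 3 alone (-2.05, adjusted p = 0.0508). SLC18A3, the vesicular acetylcholine transporter, measured -0.69 ± 0.14 (adjusted p = 0.000402), from 33.7 to 52 CPM in DMSO to 18.3 to 30.3. RPH3A, a Rab effector on vesicles, measured -1.26 ± 0.46 (adjusted p = 0.0406), a call lost without DMSO replicate 2, 3 or 4 or high-dose replicate 1 or 3 (up to 0.133), with no low-count filter (0.0682) and in a fit of these groups alone (0.0535).

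In the combination 4 of the 94 were called (4.26%, below the 6.3% of all genes): 3 rose, among them PCLO and SYTL3 (1.22 ± 0.26, adjusted p = 0.00221), and DOC2B, a calcium sensor, fell (-0.48 ± 0.13, adjusted p = 0.0228). The DOC2B call was lost without combination replicate 2 or 3 or DMSO replicate 3 (up to 0.0926). Within replicates 1 and 3 alone the SYTL3 call was lost (0.83, adjusted p = 0.159). Between the combination and prexasertib 3 were called (3.19%, near the 3.44% of all genes), among them PCLO (0.95) and SYTL2 (1.27 ± 0.37, adjusted p = 0.0491), and SYTL2 was lost without combination replicate 1, 2 or 3 or prexasertib replicate 2 or 4 (up to 0.185) and with library sizes alone (0.0561). Between the doses 12 of 94 were called (12.8%, below the 20.2% of all genes), among them PCLO (1.19), BNIP1 (1.04) and SYT17 (0.97) higher and SLC18A3 (-0.42) and ESYT1 (-0.39) lower. The SYT17 call between the doses was lost within replicates 1 and 3 alone (0.89, adjusted p = 0.19). The ESYT1 call was lost without high-dose replicate 1 or 2 or any 1 low-dose library (up to 0.179), with no low-count filter (0.0541) and in a fit of these groups alone (0.0578), and the SLC18A3 call without high-dose replicate 2 or 4 or any 1 low-dose library (up to 0.213). In the low dose and with prexasertib 0 of the 94 were called by edgeR; 8 and 1 had an unadjusted p under 0.05.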

How the data were processed

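The 20 libraries were QuantSeq 3′ mRNA libraries with molecular barcodes. The authors deposited counts, raw and per Ensembl gene; per the submitters' processing notes they used FastQC 0.11.7, STAR 2.7.2b, edgeR 3.36.0, limma 3.50.3 and GRCh38. The sources used here do not give the annotation release, the counting and strand settings or the barcode collapsing; whether barcode duplicates remain would affect the spread of low counts. All 20 columns were used.

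Low counts were removed with filterByExpr of edgeR (at least 10 counts, at least 15 in total), and the rest were scaled by TMM (factors 0.968 to 1.03) and fitted with 1 term per group over all libraries with edgeR 4.0.16 in R 4.3.3 (robust quasi-likelihood F-test, two-sided, 15 residual degrees of freedom, a biological coefficient of variation of 12.5%). P-values were adjusted by Benjamini-Hochberg over 13729 genes. A ± after a log2 value is its standard error, worked out from the log2 value and the F statistic of its test. The 95% intervals were built from that standard error. The steps were tested on simulated data. Libraries of a group had Pearson's r of 0.97 to 0.981 across genes, which are not independent replicates, and a chi-square per degree of freedom of 3.01 to 8.46, so none was a copy. Detection limits cover counting error only.

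The members and lists were chosen with earlier results of these data known. All 34 members were named; of the 126 other genes, up to 3 called rises and 3 falls were named in each comparison if their mean log2 CPM reached 1, and some of these are not reported here. Positions came from GENCODE 29 and promoter windows (250 bases) from RefSeq, which had 43 for 28 members; in 21 of these 28 genes a window opened a GENCODE transcript.

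Alternatives were other scaling (RLE factors, library sizes alone), other filters, DESeq2 1.42.0, limma-voom (limma 3.58.1), fits on the compared groups alone, a block for the replicate number, and each library left out in turn. Chosen after seeing the data were a term for replicates 1 and 3 against 2 and 4, which lay apart on a principal component, and fits within each subset; the ETS core and repeat searches were also added then. The labels do not state what the replicate numbers mean. They were taken to pair libraries where deviations of same-number libraries all correlated above 0.1: the low dose (0.144 to 0.237), prexasertib (0.157 to 0.213), high against low dose (0.11 to 0.298) and combination against prexasertib (0.115 to 0.23), but not the high dose (lowest 0.0271) or the combination (lowest 0.0274) against DMSO.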

Additional observations from a re-analysis of the deposited data

Results flagged for a closer look

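Among 155 sets of 4 libraries (31 genes in 5 groups), 6 had a library farther from the other 3 than Dixon's 95% critical value allows, beside the 1 in 20 that chance gives. SYT2 measured 17 CPM in low-dose replicate 2, below 19 to 19.4 in the others. SYN1 measured 18.2 CPM in high-dose replicate 2, above 15.2 to 15.7. SV2A measured 172 CPM in prexasertib replicate 1, above 138 to 141. SNAP25 measured 43.6 CPM in combination replicate 3, below 53.5 to 55.5. SNAP29 measured 50.5 CPM in high-dose replicate 1, above 44.7 to 45.6. RIMS2 measured 77.2 CPM in combination replicate 1, above 56 to 57.4. Of these genes, SYT2 was called in the comparisons of the report, and its low-dose value without low-dose replicate 2 was -0.63 (adjusted p = 0.166).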

How the results depend on the processing

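Of 3521 log2 fold changes of the 31 genes under other settings, 3435 kept their side of the threshold, 67 fell short of it, 19 newly passed it and 0 reversed a called direction. Other scaling moved the median of all genes by at most 0.02. Depth limits SV2B, RIMS1, NAPA, SYNGR3 and SYT5, and overlapping genes limit SYT2, SYN1, VAMP1, VAMP2, STX1A and NAPA. The cause of the changes below was not tested.

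Leaving out single libraries gave these ranges of genes called, first of the 31 and then of all genes: low dose 0 to 0 and 14 to 30, high dose 10 to 13 and 2881 to 3231, prexasertib 0 to 0 and 0 to 2, combination 2 to 3 and 594 to 861, high against low dose 6 to 7 and 2160 to 2516, combination against prexasertib 2 to 3 and 309 to 474. In the low dose 0 of the 31 were called with library sizes alone or limma-voom, and of all genes 62 with no low-count filter, against 36. For prexasertib, against 0, all-gene counts were 12 with no filter, 6 with DESeq2 and 2 with only its own and the DMSO libraries.

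With the replicate number as a block, all-gene counts were 260 in the low dose, 23 with prexasertib, 1976 in the combination (against 865) and 1374 between combination and prexasertib (against 472). The block called 4 of the 31 in the combination (against 2), adding CPLX1 (-0.30, adjusted p = 0.0279) and VAMP2 (0.37, adjusted p = 0.0142), and 15 in the high dose, adding UNC13A (0.28, adjusted p = 0.0269). Between the doses it added NSF (-0.25, adjusted p = 0.0288), SYNGR2 and SYT1. The block ended no call among the 31. Calls over all genes rose as well, to 4721 at the high dose from 3456, and to 3980 between the doses from 2767. Of the 94 other genes the block called 1 in the low dose, 9 in the combination, 21 between the doses and 5 between combination and prexasertib. For the high dose and the combination against DMSO, where the numbers were not read as pairing, 3 of 4 libraries correlated best with their own number. The low dose, where they were read as pairing, also had 3 of 4. Prexasertib, high against low dose and combination against prexasertib had 4 of 4.

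With a term for replicates 1 and 3 against 2 and 4, all-gene counts were 73 in the low dose, 4 with prexasertib, 1427 in the combination and 909 between combination and prexasertib. Within replicates 1 and 3 alone they were 2230 in the high dose, 5 with prexasertib and 1457 between the doses; within replicates 2 and 4 alone they were 4 in the low dose, 2221 at the high dose, 221 in the combination, 1588 between the doses and 104 between combination and prexasertib. Of the 31, replicates 1 and 3 alone called 0 in the low dose, 9 at the high dose, 3 between the doses and 1 between combination and prexasertib, and replicates 2 and 4 alone called 0 in the low dose and 1 between combination and prexasertib.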

Other observations

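Several of these genes differed between replicates 1 and 3 and replicates 2 and 4 of the same group, a split that was noticed in the data. At least 4 of 5 groups lay apart, in 1 direction, for 3 of the 31 genes (9.68%) and for 10.7% of all tested genes, and at least 3 groups for 9 of the 31 (29%) and for 26.4% of all, shares close to each other. RIMS2 was higher in replicates 1 and 3 than in 2 and 4, with no overlap, in 4 of 5 groups (mean log2 difference 0.19). SYT11 and SYNGR4 were lower in replicates 1 and 3 in 4 of 5 groups (-0.15 and -0.12). SV2C, VAMP1 and STX7 were higher in 3 groups (0.44, 0.33 and 0.21), and SYT4, SYN1 and SNAP29 lower in 3 (-0.30, -0.25 and -0.12). The sources used here do not say what the replicate numbers stand for.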
